A study of Zea mays with 12 samples.

Results

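Plasma membrane aquaporin genes were followed in the tissues on either side of the maternal-filial boundary of the maize kernel. The genes are 6 IDs of the deposited table, of 39423 gene models listed in all. They are a list of IDs, but it was drawn up with earlier results of these data known. Counts of members called, set beside the share of all genes tested, are therefore a description. By the reference gene table the 6 are pip2b (also ZmPIP2-2), PIP2-1, PIP2-5 and PIP2-6 of the PIP2 subgroup and PIP1-1 and PIP1-5 of the PIP1 subgroup. The list from which the IDs were taken gave the name pip2e to GRMZM2G178693, but the reference pairs that ID with PIP2-5 and lists pip2e as another name of PIP2-1 (GRMZM2G014914), so the reference names are used here.

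All kernels were wild type, of the inbred strain W22, from ears of field-grown plants. On the filial side, nutrients from the mother plant are taken up by the basal endosperm transfer layer (BETL). They are delivered on the maternal side by the maternal transfer zone (MATZ). Kernels aged 8, 14 and 20 days post-pollination (DAP) were used and the tissues separated by cryomicrodissection, so that 2 tissues at 3 ages with duplicate libraries make 12 libraries in 6 groups. Since no label ties the duplicates to separate ears or plants, the p-values measure the spread between these libraries, which may be technical.

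Aquaporins are channel proteins that let water, and in some cases other small neutral molecules, cross membranes. Plasma membrane intrinsic proteins (PIPs) form the subfamily of the cell surface and fall into the PIP1 and PIP2 subgroups. Maize PIP2 proteins conduct water well when made alone in frog oocytes, whereas several maize PIP1 proteins reach the oocyte membrane efficiently only together with a PIP2 partner. In the kernel, water arrives with the phloem sap in maternal tissue and has to cross plasma membranes, because mother and offspring share no cytoplasmic connections.

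Levels are FPKM (fragments per kilobase of transcript, scaled to the mapped fragments of a library), which are scaled for transcript length and can be set side by side between genes. Column totals ran from 731024 to 987477 FPKM, and from 12609 to 21309 gene models were above 0 in a library. Depth is not stated. The commonest low value corresponded to 1.42 to 10.6 FPKM for a gene model of 1 kb, depending on the library. For this estimate the span from start to end of a gene model stood in for transcript length. If that value is what 1 fragment is worth (an inference from the values), levels below about 10 FPKM rest on very few fragments. A 0 is therefore given only as a listed value. Close relatives within the family, such as PIP2-1 and pip2b, may share reads, and how such reads were counted is not given in the sources used here, so the division of reads between these genes is uncertain.

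The gene pip2b was by far the most abundant of the 6 in each of the 12 libraries, and among all gene models it ranked 2 in both MATZ libraries at 20 DAP. The pip2b gene (GRMZM2G092125) lies on chromosome 2, from 168551300 to 168554811, on the plus strand in the deposited table's coordinates, whose genome build is not given in the sources used here. In MATZ its level was 5913 and 5703 FPKM at 8 DAP, 5962 and 6828 FPKM at 14 DAP, and 8053 and 8064 FPKM at 20 DAP. In BETL it was 2520.2 and 2442 FPKM at 8 DAP, 1071 and 736 FPKM at 14 DAP, and 628 and 542 FPKM at 20 DAP. Every MATZ library was thus above every BETL library, and the groups fell in the order MATZ at 20, 14 and 8 DAP and then BETL at 8, 14 and 20 DAP with no overlap between neighbours.

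PIP2-1 (GRMZM2G014914; chromosome 7, 41420532 to 41423983, minus strand), a further PIP2 water channel gene, had the same split between tissues at far lower levels. Its MATZ levels were 399.8 and 405 FPKM at 8 DAP, 544 and 564 FPKM at 14 DAP, and 480.3 and 525 FPKM at 20 DAP. Its BETL levels were 145 and 149 FPKM, then 106 and 79.6 FPKM, then 55.2 and 42.4 FPKM at the same ages. No 2 neighbouring groups overlapped, and the order differed from that of pip2b only in that MATZ at 14 DAP stood above MATZ at 20 DAP.

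PIP1-1 (GRMZM2G174807; chromosome 2, 18133361 to 18135367, minus strand) was the most abundant PIP1 gene of the group and stood out for a late increase in MATZ. MATZ held 320.5 and 265 FPKM at 8 DAP, 242 and 374 FPKM at 14 DAP, and 1334 and 1258 FPKM at 20 DAP. BETL held 67.1 and 25.7 FPKM at 8 DAP, 25.7 and 29.8 FPKM at 14 DAP, and 37.5 and 39.2 FPKM at 20 DAP. MATZ at 20 DAP lay far above the other groups, the MATZ groups at 8 and 14 DAP overlapped each other, and so did BETL at 8 and 20 DAP.

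PIP1-5 (GRMZM2G081843; chromosome 4, 169974857 to 169976357, minus strand), the other PIP1 gene, was less abundant and had its lowest MATZ level at 14 DAP. In MATZ it was at 60.4 and 60.02 FPKM at 8 DAP, 33.5 and 25.2 FPKM at 14 DAP, and 78.02 and 105 FPKM at 20 DAP. In BETL it was at 22.9 and 22.2 FPKM at 8 DAP, at 0 and 3.38 FPKM at 14 DAP, and at 2.41 and 2.57 FPKM at 20 DAP. MATZ lay above BETL at each age, and the BETL groups at 14 and 20 DAP overlapped.

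PIP2-6 and PIP2-5 were the rare members. PIP2-6 (GRMZM2G047368; chromosome 7, 41539139 to 41540508, minus strand) was at 33.7 and 20.2 FPKM in MATZ and 21.5 and 25.6 FPKM in BETL at 8 DAP. At 14 DAP it was listed at 0 in both MATZ libraries and at 0 and 2.04 FPKM in BETL, and at 20 DAP at 3.33 and 9.18 FPKM in MATZ and at 0 in both BETL libraries. Its highest levels in both tissues were thus at 8 DAP, and its groups overlapped at 8 DAP and also, near 0, at 14 DAP. The commonest low value at 8 DAP corresponded to 6.9 and 3.93 FPKM in BETL and 2.89 and 6.17 FPKM in MATZ for a gene model of 1 kb. If that is what 1 fragment is worth, the 8 DAP levels of PIP2-6 may rest on few fragments too.

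PIP2-5 (GRMZM2G178693; chromosome 2, 27867805 to 27870068, minus strand) reached its highest levels in MATZ at 20 DAP, at 25.1 and 19.2 FPKM. Earlier MATZ libraries held 0 and 5.03 FPKM at 8 DAP and 3.54 and 16.04 FPKM at 14 DAP. In BETL it was listed at 0 in both libraries at 8 DAP, at 0 and 4.28 FPKM at 14 DAP, and at 0 and 1.46 FPKM at 20 DAP. Apart from MATZ at 20 DAP, each group overlapped the next in order. PIP2-1 and PIP2-6 are neighbours on chromosome 7, on the same strand with a gap of 115155 bp that holds 2 gene models.

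**Figure D1:**
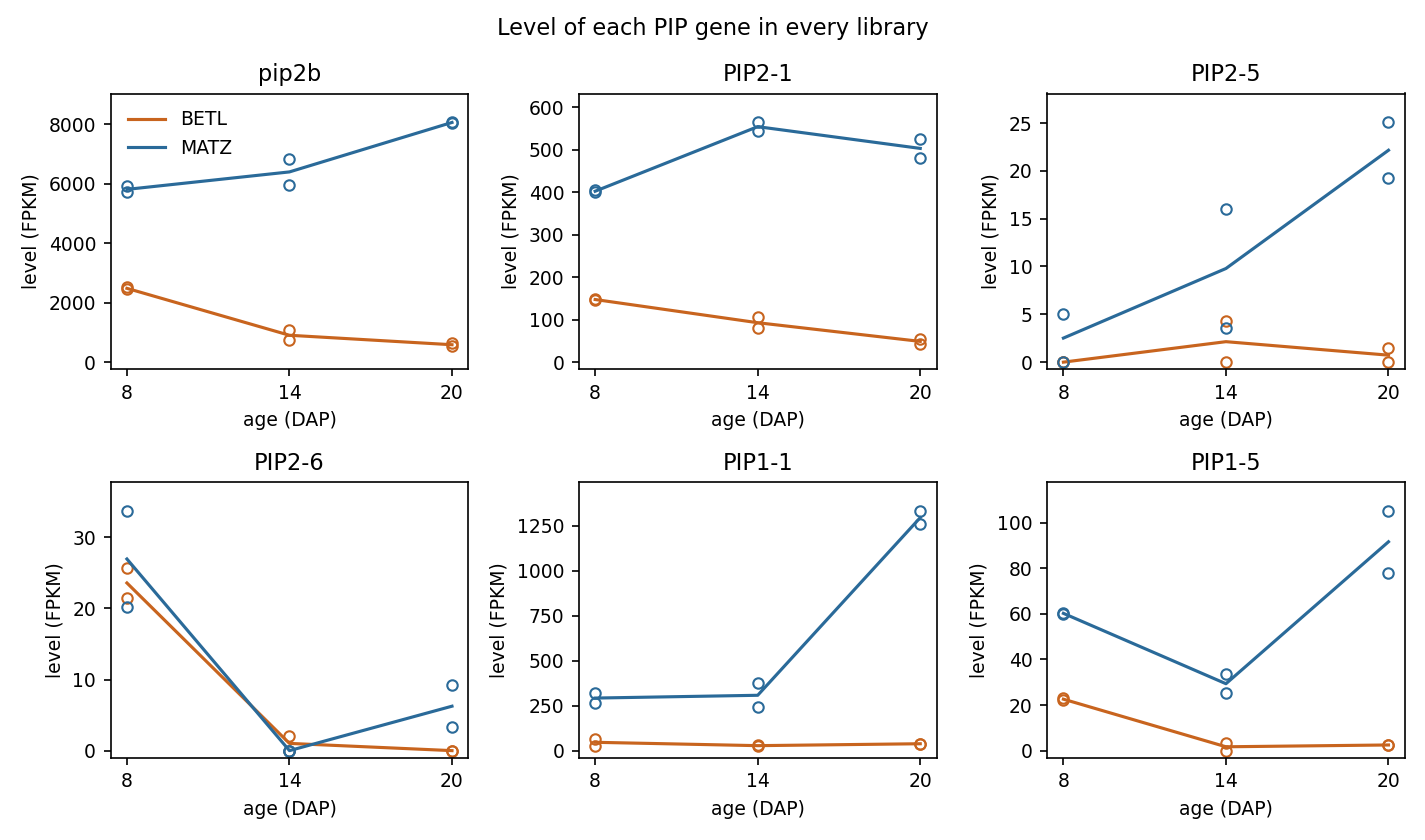
Level (FPKM, linear axis from 0) of each of the 6 genes against age (DAP); open circles are single libraries, 2 per group, and lines join group means for BETL and MATZ. MATZ lies above BETL throughout for pip2b, PIP2-1, PIP1-1 and PIP1-5, PIP1-1 reaches 1334 and 1258 FPKM in MATZ at 20 DAP, and PIP2-6 is highest at 8 DAP in both tissues.

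Added up, the 6 genes came to 6592 ± 191 FPKM in MATZ at 8 DAP, 7296 ± 724 at 14 DAP and 9978 ± 4.75 at 20 DAP (SD, n = 2). In BETL the sum was 2721 ± 79.2, 1029 ± 246 and 676 ± 67.0 FPKM at the same ages. The 2 tissues therefore moved apart, from a MATZ sum 2.42 times that of BETL at 8 DAP to 7.09 times at 14 DAP and 14.8 times at 20 DAP. Of all FPKM in a library, the 6 genes held 1.23% ± 0.0121 in MATZ and 0.0685% ± 0.00688 in BETL at 20 DAP (SD, n = 2).

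The make-up of this sum shifted from pip2b towards the PIP1 genes by 20 DAP in both tissues. The share held by pip2b in BETL was 91.2% ± 0.623 at 8 DAP and 86.6% ± 0.343 at 20 DAP, while in MATZ it was 88.1% ± 0.302 at 8 DAP, 87.7% ± 0.2995 at 14 DAP and 80.8% ± 0.0355 at 20 DAP (SD, n = 2). PIP1-1 and PIP1-5 together held 5.34% ± 0.4499 in MATZ at 8 DAP, 4.59% ± 0.747 at 14 DAP and 13.9% ± 0.353 at 20 DAP. The same pair in BETL held 2.52% ± 1.02, 3.01% ± 1.23 and 6.09% ± 0.797 at the same ages. Both MATZ libraries at 20 DAP thus had a PIP1 share above that of the other 10 libraries. In BETL the summed level of PIP1-1 and PIP1-5 was 69.0 ± 29.8 FPKM at 8 DAP and 40.8 ± 1.30 FPKM at 20 DAP. Their higher BETL share at 20 DAP therefore came with a lower level.

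**Figure D2:**
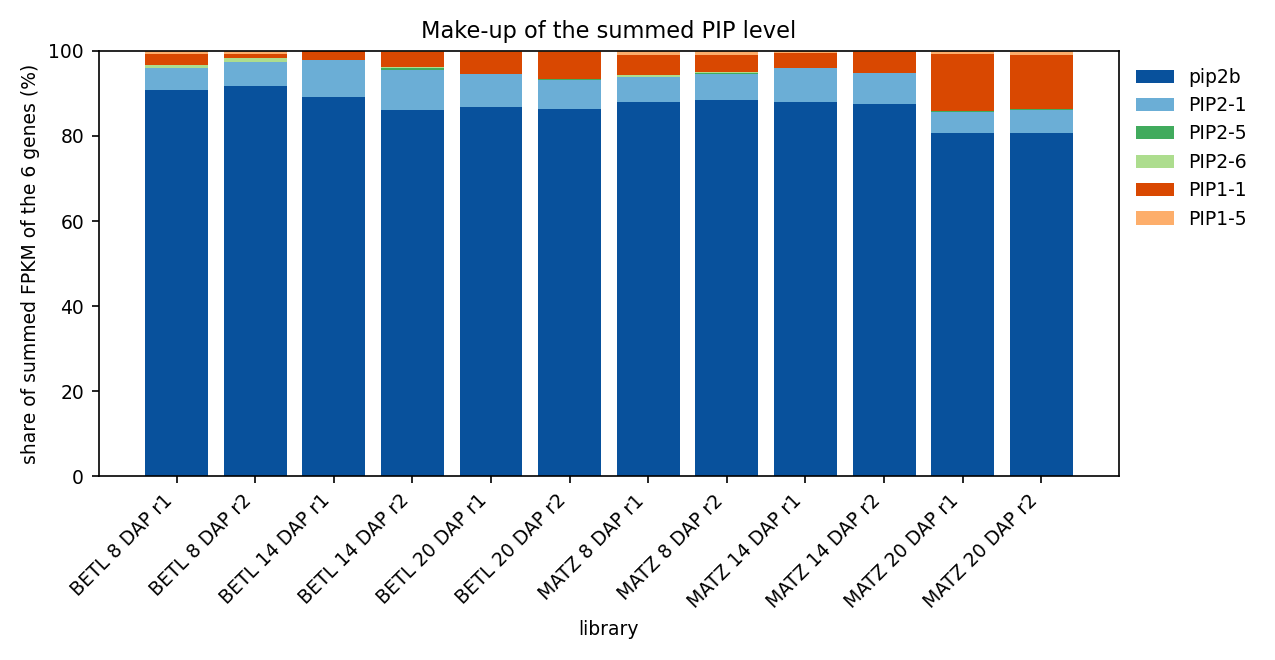
Share (%) of the summed FPKM of the 6 genes held by each gene in every library, as stacked bars. The pip2b share is above 80% in each library, and the PIP1-1 segment is widest in the 2 MATZ libraries at 20 DAP, where the PIP1 genes together hold 13.9% ± 0.353 (SD, n = 2).

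The tissues were compared at each age to ask how the maternal and filial sides of the boundary differ in these channel genes. Differences are on the log2(FPKM + 1) scale, BETL minus MATZ, which understates the change of low genes, and were tested by limma on 24213 genes with Benjamini-Hochberg adjustment; all 6 genes passed the filter on low values, and a gene counted as called at an adjusted p under 0.05. The number of the 6 called lower in BETL was 3 at 8 DAP and 4 at both later ages, and none was called higher. Of all genes tested, 5.31%, 4.38% and 6.38% were called lower in BETL at 8, 14 and 20 DAP. The median log2 difference of the 6 was −1.34, −2.71 and −3.83 at these ages, beside −0.40, 0 and 0 for all genes tested. Groups did not overlap, with MATZ higher, for 4 of the 6 at 8 DAP, 4 at 14 DAP and 6 at 20 DAP, beside 27.2%, 21.0% and 28.5% of all genes tested. At every one of the 3 ages pip2b, PIP2-1 and PIP1-1 were called lower in BETL, 3 of 6 beside 1.01% of all genes tested, and these and PIP1-5 had no overlap, 4 of 6 beside 7.57%.

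For pip2b, MATZ exceeded BETL 2.34-fold at 8 DAP, 7.08-fold at 14 DAP and 13.8-fold at 20 DAP, and the last of these was a log2 difference of −3.79 ± 0.17 (SE; limma adjusted p = 3.43e-06). PIP2-1 was 2.73-fold, 5.97-fold and 10.3-fold higher in MATZ at these ages, with a log2 difference of −3.35 ± 0.22 at 20 DAP (limma adjusted p = 2.50e-05). PIP1-1 was 6.30-fold higher in MATZ at 8 DAP, 11.1-fold at 14 DAP and 33.8-fold at 20 DAP, where its log2 difference was −5.04 ± 0.40 (limma adjusted p = 7.24e-05). PIP1-5 was 36.8-fold higher in MATZ at 20 DAP, with a log2 difference of −4.72 ± 0.63 (limma adjusted p = 0.00146), and at 14 DAP its difference was −3.85 ± 0.63 (limma adjusted p = 0.00592). With no filter on low values the calls of pip2b were lost at each age (limma adjusted p = 0.618, 0.150 and 0.0546), and with the compared groups fitted alone 0 of the 6 were called at 8 and at 14 DAP.

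The remaining tissue differences did not pass the test. PIP1-5 at 8 DAP had a log2 difference of −1.38 ± 0.63 (limma adjusted p = 0.263), although its libraries did not overlap. For PIP2-6 the value was −0.15 ± 0.80 at 8 DAP, 0.80 ± 0.80 at 14 DAP and −2.73 ± 0.80 at 20 DAP (limma adjusted p = 1, 0.603 and 0.0594). For PIP2-5 it was −1.30 ± 1.15, −1.94 ± 1.15 and −3.87 ± 1.15 (limma adjusted p = 0.594, 0.3695 and 0.0624). Averaged over the ages, PIP2-5 was called lower in BETL at −2.37 ± 0.67 (limma adjusted p = 0.0317), along with the 4 abundant members, which makes 5 of 6 where 13.0% of all genes tested were called lower. That call for PIP2-5 was lost without any 1 of 9 of the 12 libraries, the highest adjusted p being 0.102 without BETL 20 DAP replicate 1.

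**Figure D3:**
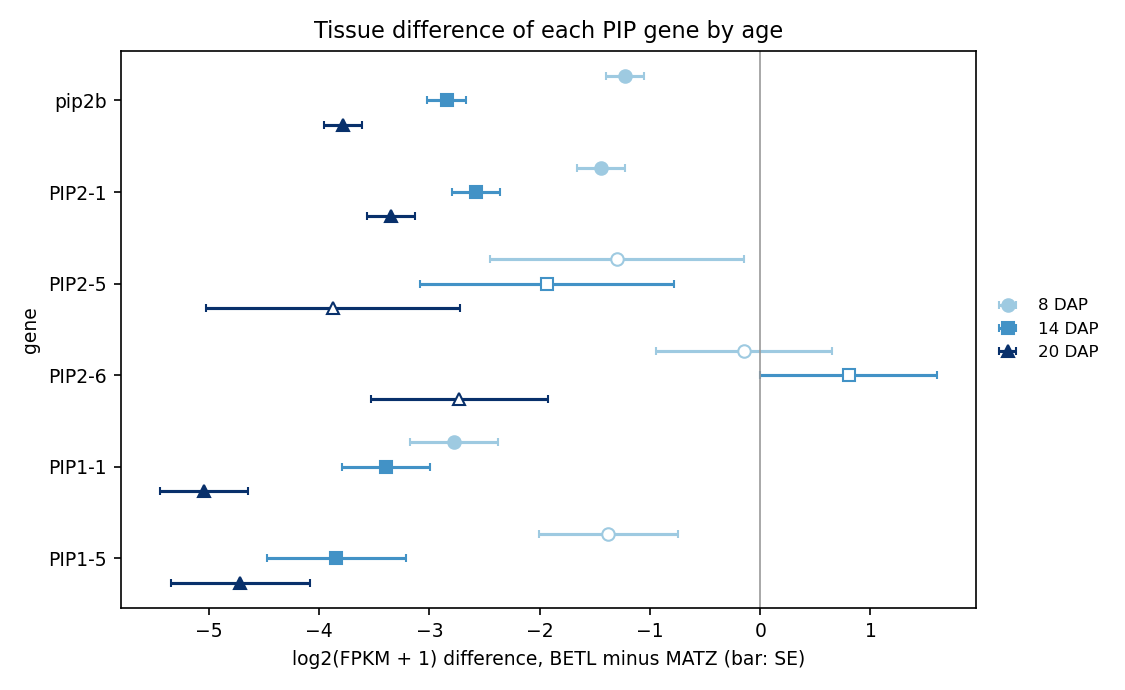
Difference of log2(FPKM + 1) between the tissues, BETL minus MATZ, for each gene at 8, 14 and 20 DAP; bars are SE from limma and filled symbols are called at adjusted p under 0.05. For pip2b the values are −1.23 at 8 DAP, −2.84 at 14 DAP and −3.79 at 20 DAP, and PIP2-6 lies at −0.15 and 0.80 at the first 2 ages.

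Markers of the maternal side showed a similar split, which bears on how these values are read. In bulk tissue, fewer cells of a type and less RNA per cell cannot be told apart. Of the 7 IDs of the maternal floral list (floral MADS-box genes), 2 were at 0 in both libraries of each group and the other 5 were above 0 in both libraries of each group, BETL included. Their summed level ran from 1017 to 1062 FPKM in MATZ and 387 to 451 FPKM in BETL at 8 DAP. At 14 DAP the ranges were 1544 to 1574 and 258 to 295 FPKM, and at 20 DAP 1875 to 1893 and 157 to 160.5 FPKM. MATZ thus exceeded BETL 2.48-fold, 5.63-fold and 11.9-fold in this sum, close to the ratios of pip2b and PIP2-1, while those of PIP1-1 were larger at each age. The ratio of PIP1-5 was 2.67 at 8 DAP and 36.8 at 20 DAP, where its BETL mean was 2.49 FPKM. In the other direction, the 12 basal endosperm genes summed to 2298 to 2944 FPKM in MATZ at 8 DAP, 6713 to 7436 at 14 DAP and 10245 to 11702 at 20 DAP, against 43633 to 52673, 48976 to 58223 and 83897 to 92411 FPKM in BETL. The 26 zein genes of the starchy endosperm, led by bz15 and gz16, had a mean sum of 66.7 FPKM in MATZ and 79.2 FPKM in BETL at 8 DAP, 11534 and 4386 FPKM at 14 DAP, and 1031 and 1525 FPKM at 20 DAP, so that the higher tissue changed with age. The 4 vascular genes had a mean sum of 72.1 FPKM in MATZ and 96.6 FPKM in BETL at 8 DAP and 467 and 206 FPKM at 20 DAP, but its leading genes went opposite ways. At 20 DAP the auxin carrier gene PIN1a was at 335 to 464 FPKM in MATZ and 29.1 to 31.5 FPKM in BETL, and the sucrose transporter gene sut1 at 29.0 to 44.4 and 156 to 166 FPKM. The list of embryo and embryo surrounding region genes was led by 2 genes of the surrounding region, ESR1 and esr-6. It summed to 118 to 119 FPKM in MATZ and 948 to 988 FPKM in BETL at 20 DAP. The 2 aleurone genes, LTP3 and vp1, were at 0 in MATZ at 14 and 20 DAP. The part of carried-over neighbouring tissue in the tissue differences of the PIP genes was not tested.

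**Figure D4:**
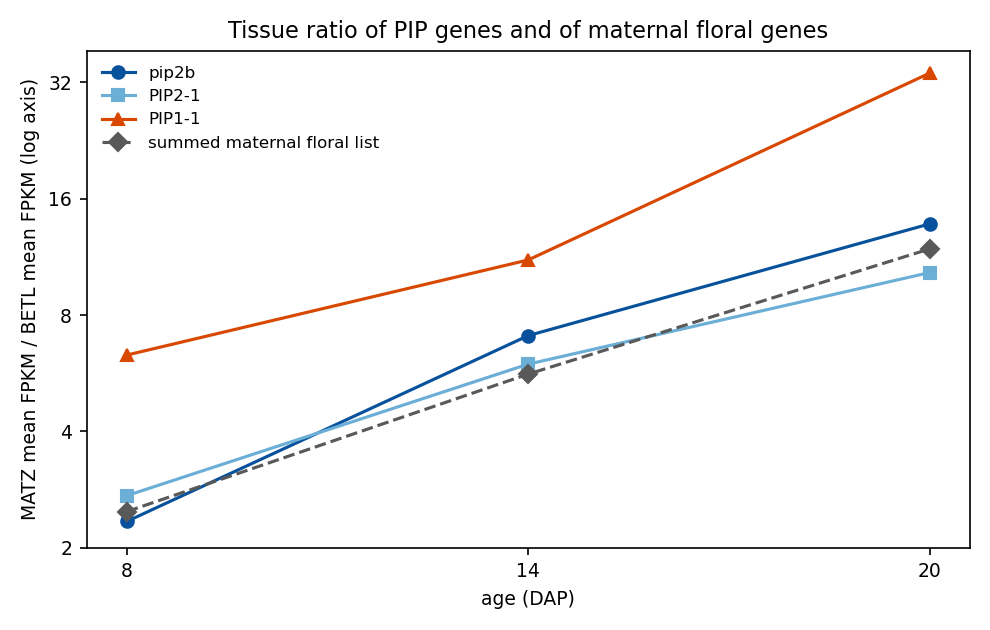
MATZ mean FPKM divided by BETL mean FPKM (log axis) at each age for pip2b, PIP2-1 and PIP1-1 (solid lines) and for the summed maternal floral list (dashed line), each from group means of 2 libraries. The pip2b and PIP2-1 ratios run near that of the maternal floral sum, from 2.34 and 2.73 beside 2.48 at 8 DAP to 13.8 and 10.3 beside 11.9 at 20 DAP, and PIP1-1 reaches 33.8.

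Changes with age were compared within each tissue. In BETL, pip2b fell from 8 to 14 DAP, with a log2 change of −1.48 ± 0.17 (limma adjusted p = 0.00115), so that its mean at 8 DAP was 2.75 times that at 14 DAP. PIP1-5 fell with a log2 change of −3.49 ± 0.63 (limma adjusted p = 0.00871) and PIP2-6 with one of −3.81 ± 0.80 (limma adjusted p = 0.0166) over the same step, to levels at or near 0. These were 3 of the 6, where 2.58% of all genes tested fell. Over the whole span from 8 to 20 DAP, 4 of the 6 fell in BETL, beside 3.45% of all genes tested. They were pip2b (−2.09 ± 0.17, limma adjusted p = 0.000107), PIP2-1 (−1.59 ± 0.22, limma adjusted p = 0.002), PIP1-5 (−2.76 ± 0.63, limma adjusted p = 0.0226) and PIP2-6 (−4.62 ± 0.80, limma adjusted p = 0.00678). The median log2 change of all genes tested was 0.79 in BETL over this span, and 0.04 with quantile normalization. The BETL libraries had 12609 and 15220 gene models above 0 at 8 DAP and 21309 and 20768 at 20 DAP. The part of this difference in detection in the median change was not tested. The summed maternal floral markers also went down in BETL, from a mean of 419 FPKM at 8 DAP to 159 FPKM at 20 DAP, with 3 of the 5 tested genes called lower, and their part in the falls of the PIP genes was not tested. From 14 to 20 DAP limma called 0 of the 6 in BETL, where 0.801% of all genes tested were called. The same limma fit gave 2 of the 6 an unadjusted p under 0.05 with a fall, beside 5.03% of all genes tested, pip2b with a log2 change of −0.60 ± 0.17 (adjusted p = 0.221) and PIP2-1 with one of −0.91 ± 0.22 (adjusted p = 0.117).

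The remaining members had uncalled values in BETL. PIP2-1 had a log2 change of −0.68 ± 0.22 from 8 to 14 DAP (limma adjusted p = 0.0735), and PIP2-5 one of 0.65 ± 1.15 from 8 to 20 DAP (limma adjusted p = 0.759). The BETL level of PIP1-1 had log2 values of −0.57 ± 0.40 from 8 to 14 DAP and 0.46 ± 0.40 from 14 to 20 DAP (limma adjusted p = 0.393 and 0.918). Its 8 DAP libraries differed 67.1 to 25.7 FPKM, and without BETL 8 DAP replicate 1 the first of these values turned to 0.10. Of the BETL calls for PIP1-5 and PIP2-6, that of PIP1-5 from 8 to 14 DAP did not depend on a single library. Its log2 change ran from −4.56 to −2.43 without 1 library. The other calls for these genes did depend on single libraries. From 8 to 14 DAP that of PIP2-6 was lost without BETL 8 DAP replicate 1, BETL 8 DAP replicate 2 or BETL 14 DAP replicate 1 (limma adjusted p up to 0.0838). From 8 to 20 DAP that of PIP1-5 was lost without any 1 of the 4 libraries compared. With no filter on low values the pip2b calls from 8 to 14 and 8 to 20 DAP were lost (limma adjusted p = 0.485 and 0.262). Without BETL 20 DAP replicate 1 the 8 to 20 DAP calls of PIP1-5 and PIP2-6 were both lost. Their log2 changes ran from −2.79 to −2.725 and from −4.74 to −4.49 over the fits without 1 library.

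In MATZ the abundant member with a called change was PIP1-1, which was 4.21 times higher at 20 than at 14 DAP, a log2 change of 2.10 ± 0.40 (limma adjusted p = 0.0342). It was the 1 member called in this step, where 0.772% of all genes tested rose. From 8 to 20 DAP it rose by 2.15 ± 0.40 (limma adjusted p = 0.0122), again as the 1 member called, beside 4.39% of all genes tested. Both calls were close to the threshold. The first was lost without any 1 of 10 of the 12 libraries (up to 0.142 without MATZ 20 DAP replicate 2) and, with the replicate number as a block, 0 members were called in that step. The second was lost without either library of MATZ at 8 or at 20 DAP (up to 0.0888). The direction held in each of these fits, with log2 values from 1.79 to 2.42 for the first change and 2.01 to 2.29 for the second.

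PIP2-6 fell in MATZ from 8 to 14 DAP, with a log2 change of −4.76 ± 0.80 (limma adjusted p = 0.00875), the 1 member called where 2.48% of all genes tested fell. For pip2b in MATZ the values were 0.14 ± 0.17 from 8 to 14 DAP and 0.34 ± 0.17 from 14 to 20 DAP (limma adjusted p = 0.728 and 0.4804), and over the whole span 0.47 ± 0.17 (limma adjusted p = 0.148). The direction of pip2b in MATZ depended on scaling: from 8 to 20 DAP it was −0.07 with median-of-ratios scaling and 1.87 with quantile normalization. PIP2-1 had 0.46 ± 0.22 from 8 to 14 DAP and −0.14 ± 0.22 from 14 to 20 DAP in MATZ (limma adjusted p = 0.297 and 0.878). PIP1-5 had −1.03 ± 0.63 and 1.61 ± 0.63 (limma adjusted p = 0.4396 and 0.296), and PIP2-5 had 3.23 ± 1.15 from 8 to 20 DAP (limma adjusted p = 0.137). PIP2-6 had 2.73 ± 0.80 from 14 to 20 DAP (limma adjusted p = 0.142), and PIP1-1 had 0.05 ± 0.40 from 8 to 14 DAP (limma adjusted p = 1).

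**Figure D5:**
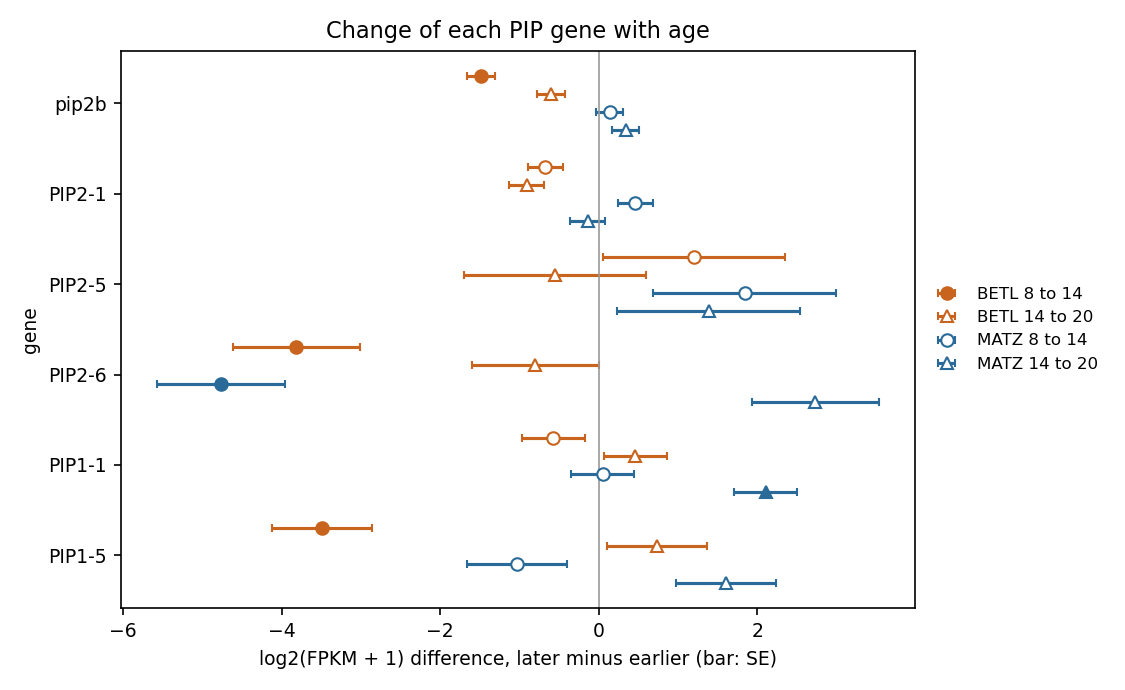
Change of log2(FPKM + 1) from 8 to 14 DAP (circles) and from 14 to 20 DAP (triangles) for each gene in BETL and MATZ, later minus earlier; bars are SE from limma and filled symbols are called at adjusted p under 0.05. PIP1-1 lies at 2.10 in MATZ from 14 to 20 DAP, and PIP2-6 at −3.81 in BETL and −4.76 in MATZ from 8 to 14 DAP.

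Whether a change with age differed between the tissues was tested as an interaction. From 8 to 20 DAP, pip2b had a log2 change in BETL minus that in MATZ of −2.56 ± 0.25 (limma adjusted p = 0.00159), and PIP2-1 had a difference of −1.91 ± 0.31 (limma adjusted p = 0.0152). These were 2 of the 6, where 1.30% of all genes tested had a difference below 0 that was called. From 8 to 14 DAP 1 of the 6 was called, pip2b at −1.62 ± 0.25 (limma adjusted p = 0.021), beside 0.566% of all genes tested. From 14 to 20 DAP 0 of the 6 and 9 of 24213 genes (0.0372%) were called by limma, with unadjusted p under 0.05 for pip2b (−0.94 ± 0.25), PIP2-1 (−0.77 ± 0.31), PIP2-6 (−3.53 ± 1.13) and PIP1-1 (−1.65 ± 0.56). These 4 of the 6 stand beside 6.24% of all genes tested with an unadjusted p under 0.05 and a difference below 0. Over the whole span PIP1-1 had −2.27 ± 0.56 (limma adjusted p = 0.0763) and PIP1-5 −3.34 ± 0.89 (limma adjusted p = 0.092). The pip2b call from 8 to 14 DAP was lost without MATZ 14 DAP replicate 2, BETL 20 DAP replicate 1 or either BETL library at 8 DAP (limma adjusted p up to 0.0822), and that of PIP2-1 without MATZ 20 DAP replicate 2 (0.0621) and with quantile normalization (0.0505). With no filter on low values both pip2b calls were lost (limma adjusted p = 0.734 and 0.550). The maternal floral list moved in the same direction, with 3 of its 5 tested genes called below 0 from 8 to 20 DAP, and its part in these results was not tested.

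Genes with profiles most like each member were taken by Pearson r of log2(FPKM + 1) over the 12 libraries, among 14777 tested genes with a group mean of at least 10 FPKM. These libraries share tissue and age, so high values are common and are given as a description. PIP2-1 was closest to the MADS-box gene zmm27 (r = 0.993) and pip2b (r = 0.983) was also among its 3 closest genes, and PIP2-1 was in turn among the 3 genes closest to pip2b. PIP1-1 was closest to OBF1 (r = 0.973), a gene named for a bZIP transcription factor. The other closest genes carry no name in the reference. Between the members, r was 0.904 for PIP1-5 with pip2b, 0.874 for PIP1-1 with pip2b and 0.417 for PIP2-6 with pip2b, and −0.15 for PIP2-6 with PIP2-5.

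The rest of the aquaporin family gives the setting. The reference names 27 aquaporin genes in the table, the 6 and 21 others, and the 6 held 93.3% ± 0.427 of their summed FPKM in MATZ at 8 DAP and 69.3% ± 4.23 in BETL at 20 DAP (SD, n = 2). Of the 21 others, 17 were tested, and 2 were at 0 in every library, PIP2-4 and the nodulin-like gene NIP2-2. Called lower in BETL were 2 of the 17 at 8 DAP, 2 at 14 DAP and 5 at 20 DAP, beside 5.31%, 4.38% and 6.38% of all genes tested. Called higher were 1, 1 and 0, beside 522, 1120 and 1023 of all 24213 genes tested. The median log2 difference of the 17 was −1.02, −0.18 and −1.36 at these ages, beside −0.40, 0 and 0 for all genes tested.

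A further PIP gene followed the tissue split. PIP1-3 (GRMZM2G392975, which the reference also names PIP1-4) was at 65.0 to 82.5 FPKM in MATZ at 8 DAP, 176 to 198 FPKM at 14 DAP and 78.4 to 95.1 FPKM at 20 DAP, with its highest level at 14 DAP. In BETL it was at 3.23 to 27.7 FPKM over the 6 libraries. Its log2 difference was −2.24 ± 0.42, −3.28 ± 0.42 and −4.26 ± 0.42 at 8, 14 and 20 DAP (limma adjusted p = 0.0118, 0.00183 and 0.000262). The PIP2 gene pip2c did not exceed a group mean of 2.70 FPKM.

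Aquaporins outside the PIP subfamily were more mixed. The small basic intrinsic protein genes SIP1-1 and SIP1-2, whose products are found in the endoplasmic reticulum, were the most abundant of the 21. SIP1-1 was higher in BETL at 8 DAP, at 303 ± 84.7 against 149.8 ± 8.92 FPKM (SD, n = 2; limma adjusted p = 0.0411), and SIP1-2 was higher in MATZ at 20 DAP, at 271 ± 67.0 against 31.7 ± 5.55 FPKM (limma adjusted p = 0.00187). Of the vacuolar membrane channel genes, TIP1-2 was higher in MATZ at 8 DAP (44.5 ± 2.598 against 5.25 ± 2.27 FPKM, limma adjusted p = 0.033) and TIP4-2 at 20 DAP (95.9 ± 24.7 against 16.9 ± 8.11 FPKM, limma adjusted p = 0.0122). TIP1-2 was called lower in BETL at 14 DAP too, with a log2 difference of −3.05 ± 0.69 (limma adjusted p = 0.0246). TIP3-1, known from seed storage vacuoles, was higher in BETL at 14 DAP, at 6.22 to 28.9 FPKM against 0 in both MATZ libraries (limma adjusted p = 0.0247). TIP2-2 shared the early timing of PIP2-6, at 24.9 to 28.1 FPKM in MATZ and 9.11 to 12.05 FPKM in BETL at 8 DAP and 0 in each library at 14 and 20 DAP, and fell from 8 to 14 DAP in both tissues (limma adjusted p = 0.00703 in BETL and 0.00223 in MATZ). SIP2-1 was at 15.2 to 26.1 FPKM in BETL and 0 to 17.5 FPKM in MATZ, NIP3-1 at 1.31 to 12.9 and 16.9 to 43.7 FPKM, and TIP2-1 at 0 to 4.95 and 3.54 to 15.6 FPKM. NIP3-1 was called lower in BETL at 20 DAP, with a log2 difference of −2.995 ± 0.54 (limma adjusted p = 0.007).

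Proton pumps, which energise the plasma membrane and the vacuolar membrane, were counted for comparison. Of 6 pump genes tested, 1 was called lower in BETL at each of 8 and 20 DAP and 0 at 14 DAP, and none was called higher. Of all genes tested, 5.31%, 4.38% and 6.38% were called lower in BETL at 8, 14 and 20 DAP. The median log2 difference of the 6 pump genes was 0.18, −0.34 and 0.19 at these ages. The plasma membrane pump gene mha2 was at 169 ± 24.9 FPKM in MATZ and 65.8 ± 2.33 FPKM in BETL at 8 DAP (SD, n = 2; limma adjusted p = 0.00727), and at 128 ± 11.8 and 97.6 ± 6.28 FPKM at 20 DAP. Its relative mha4 had a mean of 50.6 FPKM over the 12 libraries, and the vacuolar pyrophosphatase gene vpp2 one of 36.2 FPKM. The pump called at 20 DAP, named after its values were seen, was the vacuolar pyrophosphatase gene vpp1, at 60.8 ± 5.25 FPKM in MATZ and 15.4 ± 1.88 FPKM in BETL (limma adjusted p = 0.0119).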

How the data were processed

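RNA-seq libraries of BETL and MATZ at 8, 14 and 20 DAP were grouped by the tissue and age in the sample titles, 2 libraries a group. Values were deposited by the authors as FPKM in a single table, each library a column, per the file headers. Per the submitters' processing notes, the tools were Cufflinks, Bowtie2 and TopHat2. Tool versions and settings, genome build and annotation: not given in the sources used here. FPKM does not keep the number of reads behind a value, and it depends on the most abundant transcripts of a library, so other scalings were tried.

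The deposited levels were not rescaled and were taken as log2(FPKM + 1); the test covered the 24213 genes that reached 1 FPKM in 2 or more libraries. One limma 3.58.1 fit in R 4.3.3 (6 group means, mean trend, 6 residual degrees of freedom) covered 13 comparisons; p-values were adjusted over all tested genes by Benjamini-Hochberg, with a threshold of 0.05. The fit was checked on simulated data: with nearly no noise each planted change was recovered, and at the noise of these libraries most of the planted changes, large ones included, were missed, so an uncalled gene may still have changed. A first pass mark for the recovered share had been set too high for this noise and was replaced by these checks.

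Gene names come from a RefSeq gene table (Zm-B73-REFERENCE-NAM-5.0), whose coordinates were not used; 18771 IDs matched. The members and lists were chosen with earlier results of these data known. Other aquaporins were matched by names of the form subfamily and number, and proton pumps and marker genes by symbol. A hemoglobin gene named GLB1 was taken out of the list of embryo and embryo surrounding region genes. The text names other aquaporins with a group mean of at least 10 FPKM, the 3 most abundant pumps, the 2 most abundant genes of each marker list, and for each member the 3 genes with the most similar profile, of which those with a name are given. Protein and promoter sequences were not used here. The labels do not say whether replicate numbers pair the libraries. Deviations of same-numbered libraries from their group means correlated with r from −0.018 to 0.044 over 15 pairs of groups. This cannot exclude a pairing, since noise between libraries could hide it. Tables and figures used Python 3.11.15 and pandas 2.3.3.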

Additional observations from a re-analysis of the deposited data

Results flagged for a closer look

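The change with age differed between the tissues for pip2b and PIP2-1 by the interaction test of limma (12 libraries). For pip2b the log2 change in BETL minus that in MATZ was −1.62 from 8 to 14 DAP (adjusted p = 0.021) and −2.56 from 8 to 20 DAP (adjusted p = 0.00159). For PIP2-1 it was −1.91 from 8 to 20 DAP (adjusted p = 0.0152). The first pip2b call was lost without any 1 of 4 libraries (up to 0.0822 without BETL 8 DAP replicate 1), and that of PIP2-1 without MATZ 20 DAP replicate 2 (0.0621), with quantile normalization (0.0505) and without a mean trend (0.144). Both pip2b calls were lost with no filter on low values (limma adjusted p = 0.734 and 0.550) and without a mean trend. The first was also lost with the compared groups fitted alone. Summed maternal floral markers moved the same way as pip2b and PIP2-1, and their part was not tested.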

How the results depend on the processing

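Each called tissue difference at a single age kept its direction in the 10 other settings and without any 1 library. Fitting the compared groups alone left 0 members called at 8 DAP, at 14 DAP, for BETL 8 to 14 DAP, for each MATZ comparison and for the tissue difference in the change 8 to 14 DAP. Without a mean trend 1 member was called at 8 DAP and 0 for MATZ 14 to 20 DAP and for the tissue differences in the change 8 to 14 and 8 to 20 DAP. With no filter the count was 2 for BETL 8 to 20 DAP, 0 for MATZ 14 to 20 DAP, 0 for the tissue difference in the change 8 to 14 DAP and 1 for that from 8 to 20 DAP. Quantile normalization gave 2 members for each MATZ comparison, and a pseudocount of 5 gave 2 for MATZ 8 to 20 DAP. MATZ 14 to 20 DAP had 0 with a pseudocount of 0.1 and with the 10 most abundant genes left out of the total. Leaving out 1 library at a time gave 0 to 1 members for BETL 14 to 20 DAP (1 without BETL 14 DAP replicate 2), 2 to 4 for BETL 8 to 20 DAP, 0 to 1 for MATZ 14 to 20 and 8 to 20 DAP, and 0 to 2 and 1 to 3 for the tissue differences in the change 8 to 14 and 8 to 20 DAP. The causes were not tested. Over all genes, the tissue difference in the change 14 to 20 DAP called 9, and from 1 to 223 in other settings; for BETL 14 to 20 DAP, 194 became 0 to 331, for MATZ 14 to 20 DAP 356 became 0 to 622, for the tissue differences in the change 8 to 14 and 8 to 20 DAP 307 became 1 to 952 and 565 became 260 to 1143, and with the compared groups alone 1807 at 8 DAP, 2180 at 14 DAP, 2818 for BETL 8 to 14 DAP, 1352 for MATZ 8 to 14 DAP and 1759 for MATZ 8 to 20 DAP each became 0.

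With the replicate number as a block, 0 members were called for MATZ 14 to 20 DAP, where 1 was called without it, and 5 in place of 4 for BETL against MATZ at 20 DAP; the other counts of members stayed at the same number. The block called 108 genes in place of 194 for BETL 14 to 20 DAP. The labels do not say whether the numbers pair the libraries, and noise between libraries could hide a pairing. No conclusion is therefore drawn from a call lost under the block.

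Directions turned for uncalled values alone. For PIP2-6 at 8 DAP the log2 difference was 0.13 with median-of-ratios scaling and 0.14 with quantile normalization, and it ran from −0.50 to 0.21 without 1 library. For pip2b in MATZ it was −0.30 (median of ratios) and −0.071 (10 most abundant genes left out) from 8 to 14 DAP, and −0.066 (median of ratios) from 8 to 20 DAP. For PIP1-1 in MATZ from 8 to 14 DAP it was −0.39 (median of ratios), −0.071 (quantile) and −0.16 (10 genes left out), and −0.27 to 0.36 without 1 library. For PIP2-1 in MATZ from 8 to 20 DAP it was −0.22 (median of ratios) and −0.051 (10 genes left out). For PIP2-5 in BETL from 8 to 20 DAP it was −0.11 with quantile normalization. For PIP1-5 the tissue difference in the change 14 to 20 DAP was 0.49 with a pseudocount of 0.1, and −1.94 to 0.19 without 1 library. Without 1 library, BETL 14 to 20 DAP ran from −0.33 to 1.80 for PIP1-5 and from −1.75 to 0.65 for PIP2-5, PIP1-1 in BETL from −1.25 to 0.10 (8 to 14 DAP) and −0.79 to 0.56 (8 to 20 DAP), and the tissue difference in the change 8 to 14 DAP from −1.30 to 0.057 for PIP1-1 and from −1.94 to 0.66 for PIP2-5. If the commonest low value is what 1 fragment is worth, low values of PIP2-5, PIP2-6 and PIP1-5 rest on few fragments. That would limit what these libraries can show of them.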
